A study of Mus musculus with 3 samples.

Results

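Messenger RNA of 36 genes that take up, activate, burn or build fatty acids, or regulate these steps, was examined in regulatory T cells (Tregs), the CD4 T cells that restrain immune responses. The genes were taken by their GENCODE M21 names, and all 36 were found among the 55536 genes of the tables. They comprise 18 genes of mitochondrial oxidation, 8 of synthesis, 6 of uptake, binding and activation, and 4 regulators. The cells were Tregs described as inflammation-experienced, from a 6-month-old adult male of the strain Foxp3CreERT2 x Rosa26YFP, in which the Foxp3 gene carries a tamoxifen-dependent Cre and Rosa26 holds a YFP reporter. Polyadenylated RNA of 1 biological replicate was sequenced in 3 libraries, numbered 1 to 3 by technical replicate. The labels give no other group, no agent that caused the inflammation, no sort gate and no count of pooled animals, so the account covers levels in these cells and differences between their libraries.

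Fatty acids enter a cell through carriers such as CD36, are held in the cytosol by binding proteins, and are coupled to coenzyme A by the long-chain acyl-CoA synthetases. Carnitine carries the acyl group into mitochondria, where rounds of dehydrogenation, hydration, dehydrogenation and thiolysis release acetyl-CoA and pass electrons to the electron transfer flavoprotein. Synthesis runs the other way in the cytosol, from citrate to acetyl-CoA, malonyl-CoA and palmitate, which is then elongated or desaturated, and malonyl-CoA inhibits the carnitine step. Tregs are often described as relying more on fatty acid oxidation than effector T cells do, although the need of Tregs for the carnitine step has been disputed.

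Libraries 1, 2 and 3 held 11829501, 14136139 and 10667765 estimated counts on genes. A count of 0 allows up to 3 counts, or 0.254, 0.212 and 0.281 CPM (counts scaled to a common library total) in those libraries, and such limits cover counting error only. All 10 markers of Tregs and T cells were detected, with Foxp3 at 16.1 ± 1.86 and Cd3e at 1119 ± 9.75 TPM, a level per transcript length scaled to a common total (SD, n = 3). Genes of other cells differed between the libraries, with summed levels of 10.9, 61.7 and 26.1 TPM over 12 macrophage and monocyte markers in libraries 1, 2 and 3. The sums were 463, 717 and 903 TPM over 10 B cell markers and 4.83, 51.2 and 286.9 TPM over 8 erythroid markers. All 24 proliferation genes had their lowest scaled counts in library 3, and their summed levels were 4654, 4237 and 3055 TPM. The 7 adipocyte markers summed to 0.73, 0.24 and 0.73 TPM with Cfd at 0 in every library, and the 5 hepatocyte markers to 2.37, 0.69 and 2.32 TPM. In bulk RNA, fewer cells of a type and less RNA per cell cannot be told apart.

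RefSeq promoter windows, from 250 bases before to 50 after a transcription start (build GRCm38.p6, the assembly also called mm10), were matched to 30 of the 36 genes. Those printed here, 5′ to 3′ on the strand of the gene, belong to the genes that the levels below turn on. Hadha and Hadhb encode the alpha and beta subunits of the mitochondrial trifunctional protein and are transcribed away from each other, with RefSeq starts 273 bases apart and windows that share 228 bases. Etfa encodes the alpha subunit of the electron transfer flavoprotein. Cpt1a encodes the enzyme of the carnitine step, and Fasn encodes fatty acid synthase. Capitals mark matches on either strand to the sequence GGGCGG, known as the GC box, to the box named for its letters CCAAT, or to GCGCATGC, the core of the site of the factor NRF1. Neighbouring or overlapping matches run together.
Hadha, chr5:30154931-30155230, minus strand: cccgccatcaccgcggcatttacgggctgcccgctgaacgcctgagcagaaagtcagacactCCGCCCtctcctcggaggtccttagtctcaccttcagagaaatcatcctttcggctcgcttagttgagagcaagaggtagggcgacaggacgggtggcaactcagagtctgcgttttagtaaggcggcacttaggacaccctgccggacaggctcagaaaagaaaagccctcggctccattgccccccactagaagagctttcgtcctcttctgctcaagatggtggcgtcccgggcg
Hadhb, chr5:30155003-30155302, plus strand: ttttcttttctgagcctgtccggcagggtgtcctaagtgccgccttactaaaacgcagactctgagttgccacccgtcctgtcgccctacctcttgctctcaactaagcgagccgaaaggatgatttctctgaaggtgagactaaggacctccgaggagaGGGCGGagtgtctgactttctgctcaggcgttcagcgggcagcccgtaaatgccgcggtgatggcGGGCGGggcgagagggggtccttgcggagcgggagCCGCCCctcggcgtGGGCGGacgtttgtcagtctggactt
Etfa, chr9:55512194-55512493, minus strand: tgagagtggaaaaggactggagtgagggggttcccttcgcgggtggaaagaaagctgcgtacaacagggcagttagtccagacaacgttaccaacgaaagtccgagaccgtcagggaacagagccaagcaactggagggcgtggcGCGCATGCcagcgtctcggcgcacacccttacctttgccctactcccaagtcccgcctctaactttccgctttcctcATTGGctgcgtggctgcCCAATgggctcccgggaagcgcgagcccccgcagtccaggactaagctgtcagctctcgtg
Cpt1a, chr19:3323051-3323350, plus strand: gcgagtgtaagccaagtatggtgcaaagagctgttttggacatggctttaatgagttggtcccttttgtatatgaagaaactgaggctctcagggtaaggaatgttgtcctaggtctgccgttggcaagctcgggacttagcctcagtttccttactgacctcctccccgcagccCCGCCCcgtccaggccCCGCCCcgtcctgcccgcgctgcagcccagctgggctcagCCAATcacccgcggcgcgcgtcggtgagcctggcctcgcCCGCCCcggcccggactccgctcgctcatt
Fasn, chr11:120824498-120824797, minus strand: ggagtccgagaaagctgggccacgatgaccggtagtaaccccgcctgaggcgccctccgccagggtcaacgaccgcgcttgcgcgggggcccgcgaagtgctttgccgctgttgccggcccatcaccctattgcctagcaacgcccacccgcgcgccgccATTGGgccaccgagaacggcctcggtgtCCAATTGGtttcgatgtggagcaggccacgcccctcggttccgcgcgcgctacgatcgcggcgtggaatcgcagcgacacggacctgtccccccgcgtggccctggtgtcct

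The GC box was in 21 of the 30 members' windows, or 70%, against 38.2% of the 27025 genes with a window. Among oxidation genes it was in 13 of 16 windows, and among synthesis genes in 2 of 6. The NRF1 core was in 4 of the 30, namely Acadm, Etfa, Etfdh and Ppara, against 3.05% of all genes with a window, and the CCAAT box was in 15 of the 30, against 41.1%. Sterol-type TCACNCCAC was found in 1 of the 30, Acsl1, against 1.44% of all genes with a window. The E-box CACGTG was in 1 of the 30, Elovl5, against 8.09%. Paired AGGTCA motifs 1 base apart were in none of the 30 and in 13 of the 27025 genes. Members' windows had a median GC content of 61.6%, against 52.8% over all genes, and motif shares at equal GC content were not compared. A match describes the letters and not a bound factor.

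Fatty acid genes were expressed across a wide range, and the electron transfer genes Etfb and Etfa stood at its top in TPM. Of the 36 members, 31 were detected, defined as 1 TPM or more in all 3 libraries. The 5 below that level were the carrier Cd36, the synthetase Acsl3, the desaturase Scd1 and the regulators Ppara and Ppargc1a. In every library 24 members lay above the median level of the 13970 genes tested, which was 11.9, 11.7 and 12.3 TPM in libraries 1, 2 and 3. At least 50 TPM in all libraries was reached by 13 members, or Fabp5, Acsl5, Acadvl, Echs1, Hadha, Hadhb, Acaa2, Eci2, Etfa, Etfb, Acly, Elovl1 and Elovl5, while 19.2% of the tested genes reached it.

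**Figure D1:**
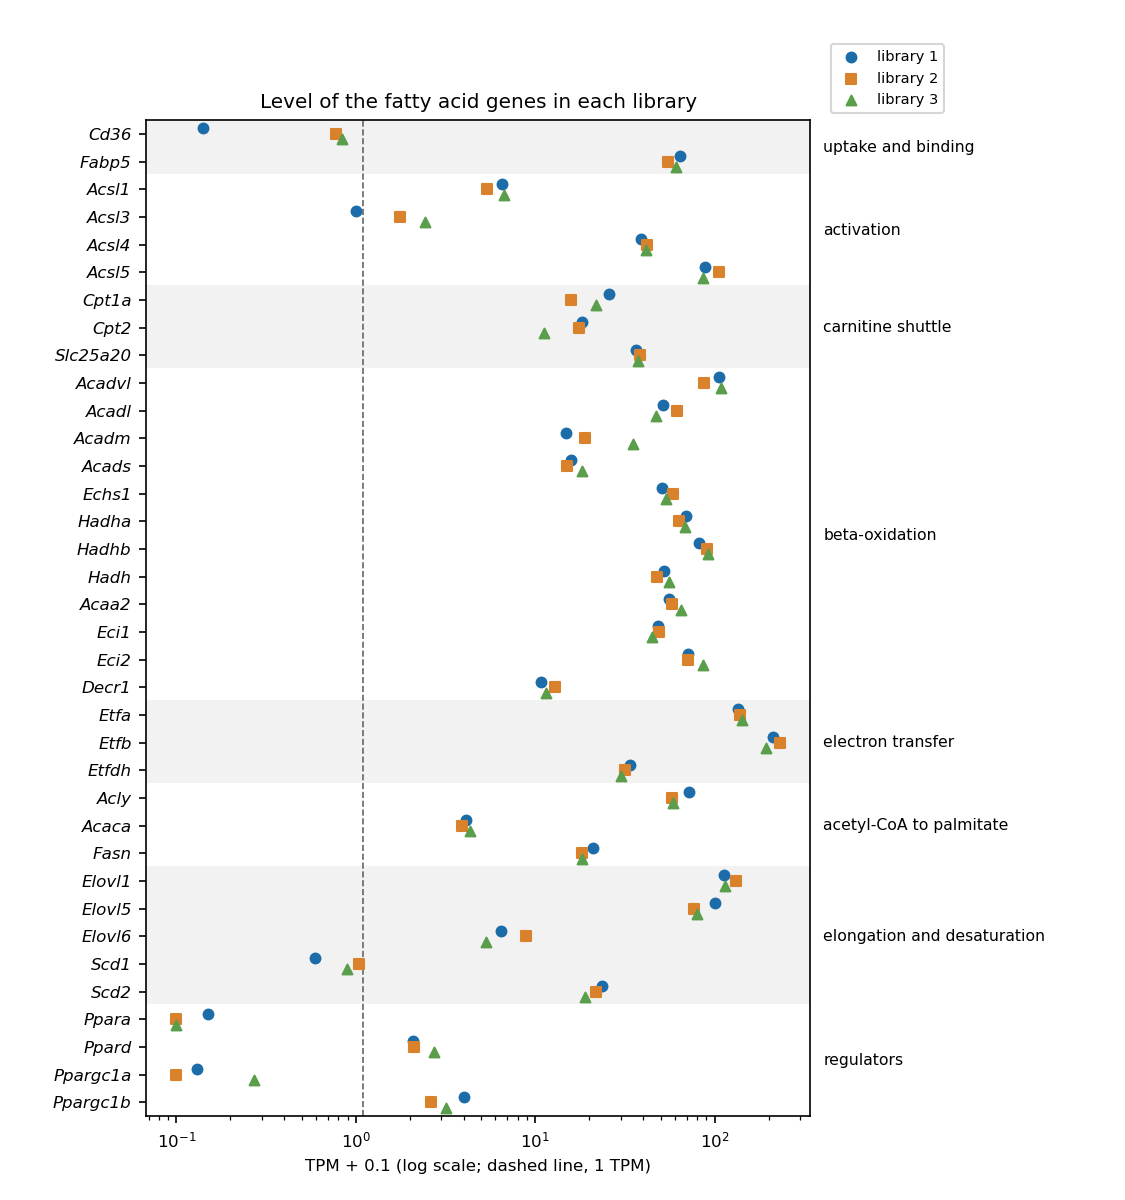
Level of each of the 36 genes in libraries 1 (circles), 2 (squares) and 3 (triangles), as TPM + 0.1 on a log axis, grouped by role from uptake at the top to regulators at the bottom; the dashed line marks 1 TPM. Etfb lies furthest right at 193 to 231 TPM, and Ppara and Ppargc1a lie at the left edge.

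For each gene, a chi-square test set the differences between its library counts against Poisson counting noise, and not against the spread between animals. Of the 34 members tested, 18 differed at an adjusted p under 0.05, or 52.9%, against 45.7% of all 13970 genes tested, so the share in the members was near that background. Most differences were small, in the members as in all called genes. The median ratio of the highest to the lowest library, as TMM-scaled CPM, was 1.29 among the 18 called members, against 1.35 among all called genes. Of the 18, 14 differed by less than 1.5-fold, against 61.7% of all called genes. The chi-square per degree of freedom, which counting noise alone would hold near 1, had a median of 5.26 in the tested members and 3.28 in all tested genes. When each chi-square was divided by the median excess of all genes, 3 of the 34 members still passed, namely Acsl5, Acly and Elovl5. Of all genes tested, 6.59% passed in that setting. In the whole-number count tables, which hold 25.2% as many counts in library 1, 7 of 31 members passed, against 21.6% of the genes tested there. These were Acsl5, Cpt1a, Acadm, Echs1, Acly, Fasn and Elovl1.

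**Figure D2:**
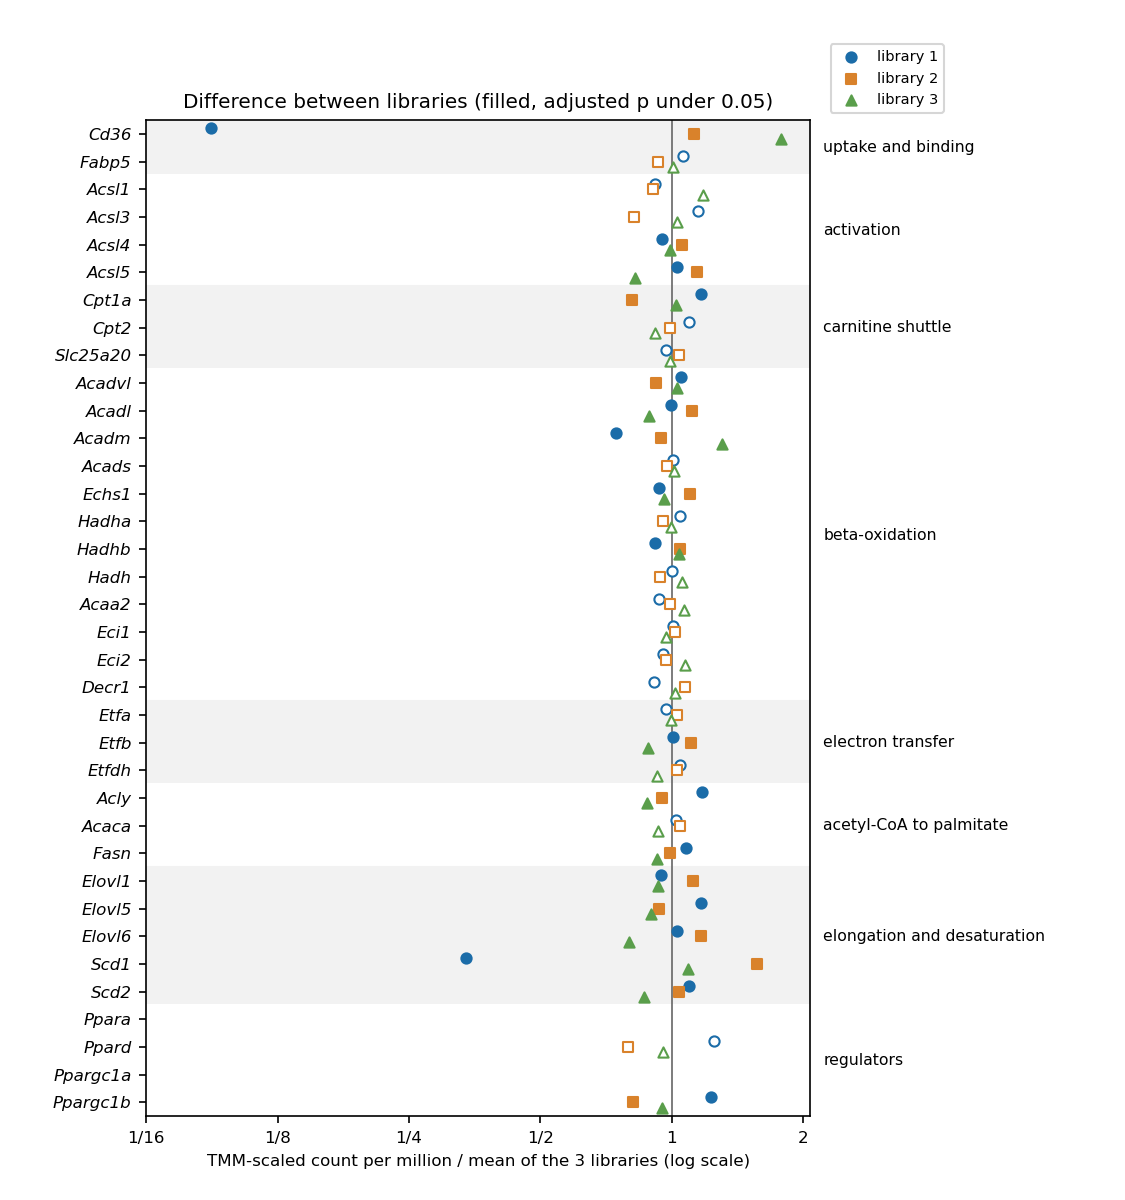
TMM-scaled CPM of each tested gene in libraries 1 (circles), 2 (squares) and 3 (triangles), divided by its mean over the 3 libraries, on a log axis. Filled symbols mark the 18 genes that differed at an adjusted p under 0.05. Cd36 and Scd1 spread widest. Of the 18, 14 differed by less than 1.5-fold, against 61.7% of all called genes.

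Uptake and binding were represented by a carrier near the detection limit and an abundant binding protein. Cd36 (ENSMUSG00000002944.15, chromosome 5, 17781690 to 17888801), the scavenger receptor that imports long-chain fatty acids, had 1, 15 and 19 counts and 0.04, 0.68 and 0.74 TPM in libraries 1, 2 and 3. Fabp5, a cytosolic fatty acid binding protein, had 64.5, 55.2 and 61.0 TPM in the same libraries. The Fabp5 level exceeded that of Cd36 in every library, by 8.85, 6.15 and 6.18 on the log2(TPM + 0.1) scale. The difference of 7.06 ± 1.55 (SD, n = 3) had a p of 0.25 in the exact two-sided sign-flip permutation test, which is the smallest that 3 libraries allow. Cd36 differed between the libraries (adjusted p = 0.00112, chi-square test), with a ratio of library 3 to library 1 of 20.3 and a 95% exact interval of 3.23 to 845 that covers counting error. Without library 1 that call was lost (adjusted p = 0.302, chi-square test). The markers of macrophages, B cells and erythroid cells given above were also lowest in library 1, and their part in the Cd36 difference was not tested. Fabp5 did not pass the test (adjusted p = 0.145, chi-square test), with 47.9, 42 and 45.5 TMM-scaled CPM.

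The acyl-CoA synthetases, which trap fatty acids as CoA esters, were dominated by Acsl5 and Acsl4. Acsl5 (ENSMUSG00000024981.6, chromosome 19, 55251938 to 55297720) had 88.1, 105.9 and 86.4 TPM in libraries 1, 2 and 3. Acsl4, which favours arachidonate and related polyunsaturated acids, had 39.0, 42.1 and 41.4 TPM. Acsl1, the main synthetase of fat and heart, had 6.45, 5.26 and 6.58 TPM, and Acsl3, a synthetase of the endoplasmic reticulum and lipid droplets, had 0.90, 1.66 and 2.33 TPM. The order Acsl5, Acsl4, Acsl1, Acsl3 was the same in all 3 libraries, without overlap between neighbours. Acsl5 differed between libraries (adjusted p = 2.93e-21, chi-square test), at 171, 190 and 137 TMM-scaled CPM, lowest in library 3 by 1.38-fold against library 2. Acsl4 also passed, at 150, 166 and 156 TMM-scaled CPM (adjusted p = 0.0102, chi-square test), and lost the call without library 1 (adjusted p = 0.0949) and without library 2 (adjusted p = 0.428). Acsl1 had 12.1, 12 and 15.6 TMM-scaled CPM and did not pass (adjusted p = 0.0525, chi-square test), although it did when library 1 was left out (adjusted p = 0.0458). Acsl3 rested on 24, 20 and 20 counts and did not pass (adjusted p = 0.605, chi-square test), while its TPM followed an effective length of 2927, 1100 and 1032 bases that the transcript model set in the 3 libraries. Acsl5 overlaps Zdhhc6 on the opposite strand, which had 1107, 1243 and 820 counts, and whether counting used strand is not given in the sources used here.

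Carnitine shuttle genes were expressed throughout, with the exchanger above both transferases. Slc25a20, which swaps acylcarnitine for carnitine across the inner mitochondrial membrane, had 36.4, 38.3 and 37.5 TPM in libraries 1, 2 and 3. Cpt1a (ENSMUSG00000024900.5, chromosome 19, 3322334 to 3385733), the rate-limiting acyltransferase of the outer mitochondrial membrane, had 25.7, 15.7 and 21.7 TPM. Cpt2, which returns the acyl group to CoA inside the mitochondrion, had 18.1, 17.5 and 11.1 TPM. The ranges of Cpt1a and Cpt2 overlapped, and their log2 difference of 0.51, -0.16 and 0.97 changed sign in library 2. Cpt1a differed between libraries at 66.3, 46 and 58.1 TMM-scaled CPM (adjusted p = 6.08e-10, chi-square test), was lowest in library 2, and passed whichever library was left out. Slc25a20, at 48.8, 52.3 and 49.8 TMM-scaled CPM, did not pass (adjusted p = 0.524, chi-square test). Cpt2 did not pass either (adjusted p = 0.241, chi-square test), with 256, 272 and 200 counts. The low Cpt2 TPM of library 3 went with an effective length of 2176 bases there, against 1565 and 1425 in libraries 1 and 2.

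The matrix enzymes of beta-oxidation were all detected, 12 of 12, at mean levels of 11.6 to 101 TPM. The acyl-CoA dehydrogenases open each round for a given chain length. Acadvl, which acts on very long chains, was the highest of these, at 106, 87.4 and 109 TPM in libraries 1, 2 and 3. Acadl, for long chains, had 51.6, 61.6 and 46.8 TPM, so Acadvl exceeded it by 0.92 ± 0.37 on the log2 scale (SD, n = 3; p = 0.25, exact sign-flip permutation test). Acadm, for medium chains, had 14.8, 18.9 and 35.0 TPM, and Acads, for short chains, had 15.8, 14.9 and 18.1 TPM. The levels of Acadm and Acads crossed, with Acadm slightly below Acads in library 1 and above it in libraries 2 and 3.

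Among the dehydrogenases, Acadm (ENSMUSG00000062908.12, chromosome 3, 153922357 to 153944632) differed most between libraries. It had 255, 381 and 418 counts, or 21.7, 27.6 and 38 TMM-scaled CPM in libraries 1, 2 and 3, a 1.76-fold range (adjusted p = 2.91e-11, chi-square test), and passed whichever library was left out. The wider range of its TPM accompanied a shorter effective length in library 3, at 1438 bases, against 1907 and 1849 bases in libraries 1 and 2. Acadvl was lowest in library 2, at 151, 133 and 148 TMM-scaled CPM (adjusted p = 0.000683, chi-square test; 0.75 without library 2). Acadl was highest in library 2, at 74.1, 82.8 and 66 TMM-scaled CPM (adjusted p = 5.26e-05, chi-square test), and the call was lost without library 2 (adjusted p = 0.063) or library 3 (adjusted p = 0.0598). Acads stayed at 22.1, 21.4 and 22.2 TMM-scaled CPM (adjusted p = 0.927, chi-square test). Dvl2 overlaps Acadvl on the opposite strand with 82, 82 and 73 counts.

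The enzymes that complete a round were at similar levels to each other. Echs1, the short-chain enoyl-CoA hydratase, had 50.9, 58.3 and 53.6 TPM in libraries 1, 2 and 3, Hadh, the dehydrogenase for medium and short hydroxyacyl chains, had 51.8, 47.5 and 55.8 TPM, and the thiolase Acaa2 had 55.8, 57.7 and 65.0 TPM. These 3 genes overlapped in their ranges. The isomerases of unsaturated chains were Eci1, at 48.2, 49.1 and 44.8 TPM, and Eci2, at 71.3, 70.8 and 86.4 TPM. Eci1 was below Eci2 in every library, by -0.56, -0.53 and -0.95 on the log2 scale. Decr1, the dienoyl-CoA reductase for polyunsaturated chains, was the lowest of the 12, at 10.7, 12.7 and 11.4 TPM. Echs1 passed the library test at 61.5, 72.3 and 63.1 TMM-scaled CPM (adjusted p = 0.00447, chi-square test) and not without library 2 (adjusted p = 0.776). Its opposite-strand neighbour Paox, which overlaps it, also had the most counts in library 2, at 30, 63 and 34. Hadh, Acaa2, Eci1, Eci2 and Decr1 did not pass, and Hadh passed without library 1 (adjusted p = 0.0458, chi-square test) as Acaa2 did without library 2 (adjusted p = 0.032, chi-square test).

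Hadha and Hadhb, whose products carry out the last 3 steps on long chains, had close TPM levels. Their promoter windows shown above overlap, and promoter use was not measured. Hadha (ENSMUSG00000025745.12, chromosome 5, 30118304 to 30155162) had 69.5, 63.0 and 68.4 TPM in libraries 1, 2 and 3. Hadhb (ENSMUSG00000059447.13, chromosome 5, 30155248 to 30184593) had 81.3, 90.7 and 91.9 TPM. Hadha was thus lower in each library, by -0.23, -0.53 and -0.43 on the log2 scale, a mean of -0.39 ± 0.15 (SD, n = 3; p = 0.25, exact sign-flip permutation test). This direction did not hold in the whole-number count tables, where Hadha had 805, 851 and 725 counts and Hadhb had 75, 92 and 86. The posterior SD of the estimated count measures how uncertain the assignment of reads was. It was 11.3, 13.8 and 11.8 reads for Hadhb, on estimated counts of 1481, 1981 and 1566, and 0 for Hadha. Its part in the Hadhb level was not tested. Hadhb passed the library test at 126, 144 and 143 TMM-scaled CPM (adjusted p = 0.000802, chi-square test), but not without library 1 (adjusted p = 0.9). Hadha, at 107, 98 and 102 TMM-scaled CPM, did not pass (adjusted p = 0.134, chi-square test).

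Most Hadha reads were assigned to a transcript that GENCODE M21 does not annotate as coding. Hadha-201 (ENSMUST00000026843.11), classed as a processed transcript, took 63.4% ± 0.731 of the gene's TPM and 987, 1104 and 904 counts in libraries 1, 2 and 3. The protein-coding class of Hadha took 4.78% ± 0.725 of its TPM and 9.57% of its counts on average. The coding transcript Hadha-205 and Hadha-201 each have 20 exons and share 18 of 19 introns, and they are 4017 and 2552 bases long. They thus differ in 1 intron each and in length. Among the 31 detected members, protein-coding transcripts took a median of 94.8% of TPM, against 86.5% over the 10131 detected protein-coding genes. They took less than 50% of TPM in 2 members, Hadha and Ppard, or 6.45%, against 16.1% of those genes.

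**Figure D3:**
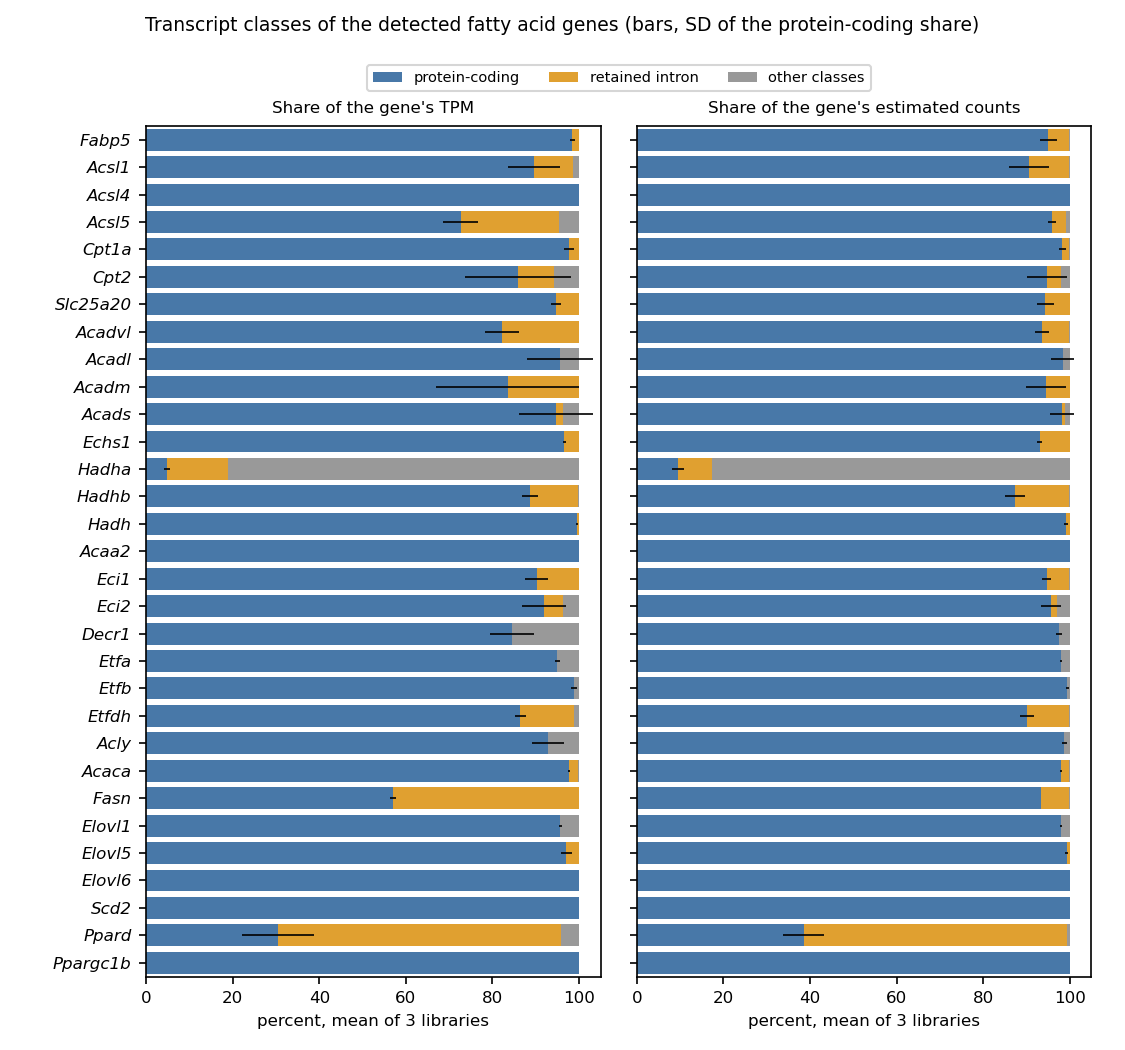
Percent of each detected gene's TPM (left) and estimated counts (right) assigned to protein-coding, retained-intron and other transcript classes, as means of the 3 libraries, with the SD of the protein-coding share as error bars. Hadha stands apart with 4.78% of TPM in the protein-coding class, and Fasn and Acsl5 have larger retained-intron shares in TPM than in counts.

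Electron transfer genes, which pass electrons from the acyl-CoA dehydrogenases to ubiquinone, had the highest median TPM of the roles. Their summed TPM of 381, 402 and 365 in libraries 1, 2 and 3 was below that of the beta-oxidation genes, at 628, 633 and 686. Etfb (ENSMUSG00000004610.4, chromosome 7, 43444083 to 43457800), the beta subunit of the flavoprotein, had 212, 231 and 193 TPM in libraries 1, 2 and 3. Etfa, the alpha subunit, had 136, 139 and 142 TPM. Etfdh, the membrane oxidoreductase that receives the electrons, had 33.7, 31.7 and 30.1 TPM, below both subunits in every library. Etfa was lower than Etfb in all 3 libraries, by -0.64, -0.73 and -0.44 on the log2 scale, and this order turned round on counts without length, where the mean difference was 0.20. Etfb differed between libraries at 123, 135 and 108 TMM-scaled CPM (adjusted p = 1.76e-07, chi-square test), lowest in library 3, and passed whichever library was left out. Etfa, at 136, 144 and 139 TMM-scaled CPM, and Etfdh, at 55.8, 54.9 and 49.4, did not pass (adjusted p = 0.296 and 0.138, chi-square test). Etfdh overlaps 4930579G24Rik on the opposite strand, which had 518, 567 and 352 counts.

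The cytosolic route from citrate to palmitate was led by its first enzyme. Acly (ENSMUSG00000020917.17, chromosome 11, 100476353 to 100528000), which splits citrate into acetyl-CoA and oxaloacetate, had 71.7, 57.5 and 58.5 TPM in libraries 1, 2 and 3. Fasn, which builds palmitate, had 20.9, 18.1 and 18.1 TPM. Acaca, the acetyl-CoA carboxylase that makes malonyl-CoA, had 4.02, 3.79 and 4.23 TPM. The order Acly, Fasn, Acaca held in every library without overlap, with Acly above Acaca by 3.92 ± 0.18 and Fasn above Acaca by 2.22 ± 0.14 on the log2 scale (SD, n = 3; p = 0.25 each, exact sign-flip permutation test). Acly differed between the libraries at 230, 186 and 172 TMM-scaled CPM (adjusted p = 2.32e-22, chi-square test), the smallest adjusted p of the members. It was highest in library 1 and lowest in library 3, and passed under every alternative run. Fasn followed the same order at 88.2, 80.7 and 75.6 TMM-scaled CPM (adjusted p = 0.0105, chi-square test), and was lost without library 1 (adjusted p = 0.281) or library 3 (adjusted p = 0.128). Acaca, at 17.3, 17.7 and 15.8, did not pass (adjusted p = 0.608, chi-square test). Retained-intron transcripts took 43% of the Fasn TPM but 6.55% of its counts; a TPM share divides by the length of each transcript and a count share does not.

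Elongases and desaturases spanned the range from among the highest members to nearly none. Elovl1, which elongates saturated and monounsaturated chains to very long lengths, had 113, 132 and 114 TPM in libraries 1, 2 and 3. Elovl5, which elongates polyunsaturated chains, had 101, 77.1 and 79.4 TPM, below Elovl1 in each library. Elovl6, which elongates palmitate towards stearate, had 6.36, 8.82 and 5.19 TPM. Elovl1 exceeded it by 4.15 ± 0.27 and Elovl5 by 3.66 ± 0.48 on the log2 scale (SD, n = 3; p = 0.25 each, exact sign-flip permutation test). Of the stearoyl-CoA desaturases, which introduce unsaturation into saturated chains, Scd2 had 23.6, 21.7 and 19.0 TPM, and Scd1 had 0.49, 0.94 and 0.79 TPM from 9, 49 and 27 counts. Scd2 exceeded Scd1 by 5.33, 4.39 and 4.42 on the log2 scale in libraries 1, 2 and 3 (p = 0.25, exact sign-flip permutation test).

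All 5 elongation and desaturation genes differed between the libraries, against 45.7% of all genes tested. Elovl5 was highest in library 1, at 194, 156 and 149 TMM-scaled CPM (adjusted p = 1.08e-17, chi-square test; 0.284 without library 1). Elovl1 was highest in library 2, at 104, 123 and 102 (adjusted p = 1.01e-06, chi-square test; 0.863 without library 2). Scd2 was lowest in library 3, at 98.1, 93 and 77.5 (adjusted p = 3.61e-06, chi-square test; 0.37 without library 3). Elovl6 had 15.5, 17.6 and 12 TMM-scaled CPM (adjusted p = 0.00595, chi-square test), and failed without library 2 (adjusted p = 0.0765) or library 3 (adjusted p = 0.372). Scd1 was instead lowest in library 1, at 0.765, 3.55 and 2.46 TMM-scaled CPM (adjusted p = 0.000127, chi-square test; 0.233 without library 1), and its ratio of library 2 to library 1 was 4.64 with a 95% exact interval of 2.26 to 10.7 for counting error. The macrophage markers were likewise highest in library 2 and lowest in library 1, and their part in the Scd1 difference was not tested. Elovl1 overlaps the cell cycle gene Cdc20 on the opposite strand, which had 430, 361 and 187 counts.

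The 8 synthesis members tended to have their lowest TMM-scaled counts in library 3. Of the 8, 7 were lowest there, all but Scd1, against 37.3% of all genes tested, and 6 were both lowest there and called, against 19.5% of all genes tested. A call marks any difference between the 3 libraries and not a low library 3. Libraries 2 and 3 alone did not differ for Elovl5 (adjusted p = 0.284, chi-square test) or Fasn (0.281). Libraries 1 and 3 alone did not differ for Elovl1 (0.863) or Elovl6 (0.0765). Acly and Scd2 passed in both comparisons. Of the 18 oxidation genes, 5 were lowest in library 3 and 2 of these were called. The synthesis count was 5 of 8 with total counts as the scale, against 28.5% of genes, and 5 of 7 in the whole-number tables, against 36.9%. A further list of accessory synthesis genes, described below, did not show the pattern beyond the share of all genes. There 4 of 9 tested genes were lowest in library 3, against 37.3% of all genes tested. Of the 9, 1 was both lowest there and called, against 19.5%, and 2 called genes were highest in library 3. In all, 7 of 8 synthesis genes and 7 of 18 oxidation genes passed the library test, or 87.5% and 38.9%, against 45.7% of all genes tested. The 24 proliferation genes moved the same way, all called and all lowest in library 3 with ranges of 1.37-fold to 2.15-fold, and their part in the synthesis result was not tested.

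Set side by side within each library, the oxidation genes had the higher median level. Their median was 51.2, 53.4 and 50.2 TPM in libraries 1, 2 and 3, against 22.2, 19.9 and 18.5 TPM for the synthesis genes. On the log2(TPM + 0.1) scale oxidation exceeded synthesis by 1.20, 1.42 and 1.43, a mean of 1.35 ± 0.13 (SD, n = 3), or 2.55-fold. The groups overlapped widely, since 3 of 8 synthesis genes, Acly, Elovl1 and Elovl5, lay above the oxidation median in every library. Oxidation genes spanned 10.7 to 212, 12.7 to 231 and 11.1 to 193 TPM, and synthesis genes 0.49 to 113, 0.94 to 132 and 0.79 to 114 TPM. In the estimated counts the direction reversed when length was left out, with synthesis genes having a median effective length of 3872 bases and oxidation genes one of 1744. On CPM without length the mean difference was -0.39. In the whole-number tables, also without length, it was 0.66, so the direction was kept there.

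**Figure D4:**
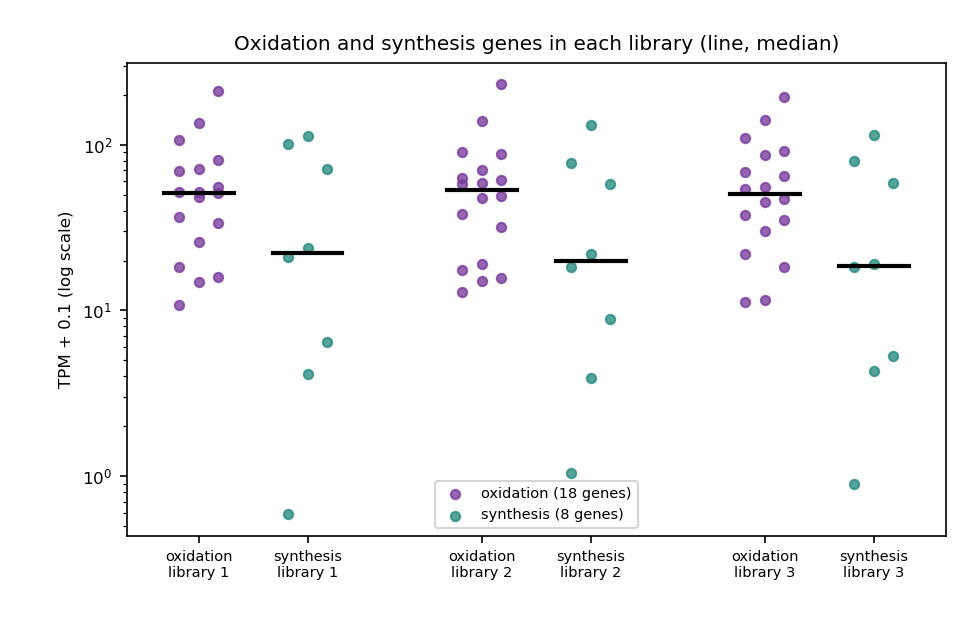
TPM + 0.1 on a log axis of the 18 oxidation and 8 synthesis genes in each library, 1 point a gene, with the median as a line. The oxidation median lies above the synthesis median in all 3 libraries, by 1.20 to 1.43 on the log2 scale, while the points of both groups overlap.

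The gate of oxidation was set directly against the enzymes of synthesis. Cpt1a exceeded Acaca, whose product inhibits it, in every library, by 2.65, 2.02 and 2.33 on the log2 scale, a mean of 2.33 ± 0.32 (SD, n = 3; p = 0.25, exact sign-flip permutation test). In gene TPM, Cpt1a and Fasn were not separated, with differences of 0.30, -0.21 and 0.26 that changed sign between libraries. The mean was 0.12 ± 0.28 (SD, n = 3, p = 0.50 in the exact sign-flip permutation test). This mean depended on the measure, at 0.89 with coding transcripts only, -0.53 on CPM without length and -1.37 in the whole-number tables. Of the 18 pairs compared, 15 kept 1 sign in all 3 libraries, and the 3 that did not were Cpt1a against Fasn, Cpt1a against Cpt2, and Acadm against Acads.

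**Figure D5:**
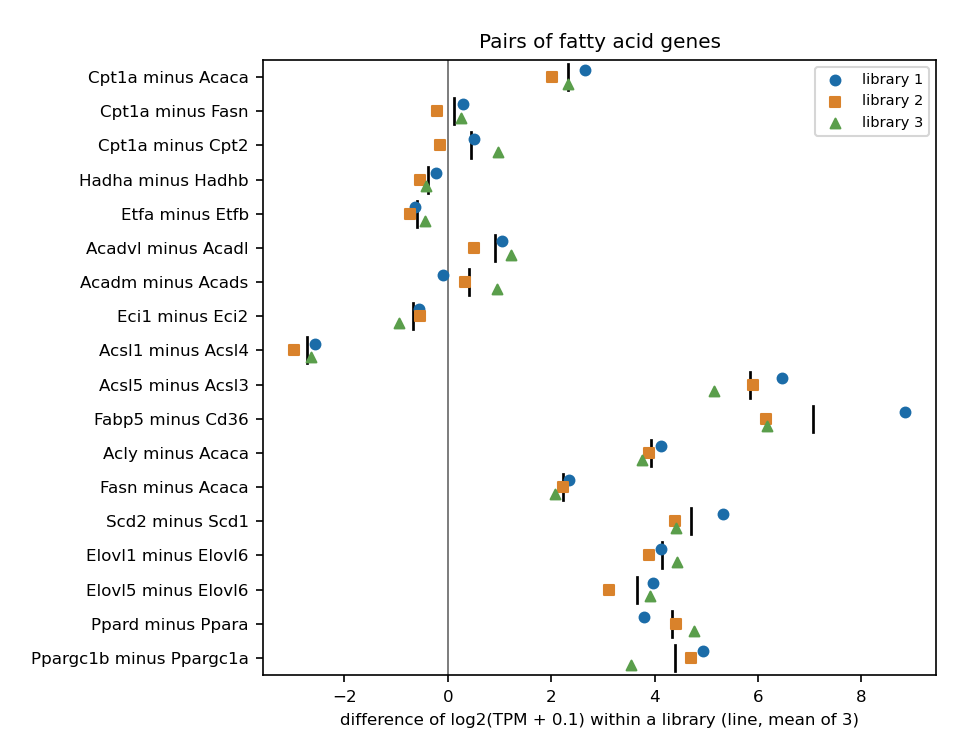
Difference of log2(TPM + 0.1) between the 18 pairs of genes within libraries 1 (circles), 2 (squares) and 3 (triangles), with the mean as a short line; positive values mean that the gene named first was higher. The pairs of Cpt1a with Fasn, Cpt1a with Cpt2 and Acadm with Acads cross 0.

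Regulators were low or nearly absent, and for both of the nearly absent genes a relative was expressed. Ppara, the nuclear receptor that drives oxidation genes in liver, had 1, 0 and 0 counts in libraries 1, 2 and 3, at or under the limit that a count of 0 allows. Ppargc1a, the coactivator of mitochondrial biogenesis in muscle and brown fat, had 2, 0 and 9 counts. Ppard, the more widely expressed receptor, had 1.99, 2.02 and 2.63 TPM from 63, 47 and 45 counts. Ppargc1b, the relative of Ppargc1a, had 3.89, 2.51 and 3.07 TPM from 127, 99 and 92 counts. Ppard lay above Ppara and Ppargc1b above Ppargc1a in all 3 libraries, and the size of these differences is set largely by the pseudocount. For Ppard over Ppara it was 6.92 on the log2 scale with a pseudocount of 0.01 and 1.65 with 1. Retained-intron transcripts took 65.5% of the Ppard TPM and 60.7% of its counts, and its coding share was 30.4% ± 8.26 of TPM (SD, n = 3). Ppargc1b passed the library test at 10.8, 7.17 and 8.37 TMM-scaled CPM (adjusted p = 0.0198, chi-square test), and not without library 1 (adjusted p = 0.435) or library 2 (adjusted p = 0.149). Ppard did not pass (adjusted p = 0.103, chi-square test), and Ppara and Ppargc1a were under the count limit for a test.

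The 100 other genes of these pathways, in 8 lists, also ranged from abundant to undetected. Of these, 74 were detected and 31 of the 80 tested differed between libraries, or 38.8%, against 45.7% of all genes tested. In fatty acid transport and handling 5 of 12 were detected, led by the acyl-CoA binding protein Dbi at 240 ± 16.2 TPM (SD, n = 3), with Acbd3 and Slc27a1 at 9.01 and 4.18 TPM, while the liver transporter Slc27a2 had 0 counts in every library. In carnitine metabolism 5 of 7 were detected, led by the peroxisomal transferase Crot at 89 TPM, with the carnitine transporter Slc22a5 at 6.94 TPM, and the muscle isoform Cpt1b stood at 0.287 TPM. Acacb, the carboxylase at the mitochondrial surface, had 65, 60 and 38 counts.

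Mitochondrial and peroxisomal oxidation beyond the members was broadly expressed. Of 13 other mitochondrial genes 12 were detected, with Hsd17b10 at 79.2 TPM, Acat1 at 65.7, Acaa1a, itself a thiolase of peroxisomes, at 34.5 and Ivd at 32.3 as means of the 3 libraries. All 12 peroxisomal genes were detected, led by the sterol carrier Scp2 at 247 TPM, Phyh at 69, Pex19 at 50.6 and Hsd17b4 at 29.1. In these lists 2 of 13 and 2 of 12 tested genes differed between libraries, against 45.7% of all genes tested.

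Supply of acetyl-CoA and storage of fatty acids were mixed. Citrate synthase, Cs, stood at 126 TPM, while the malic enzyme Me1 had 4, 1 and 1 counts. The accessory synthesis genes were led by Tecr at 290 TPM, Hacd3 at 111, Hsd17b12 at 62.7 and Mecr at 14.1. Of their list 8 of 17 were detected, and Fads2, the desaturase of polyunsaturated chains, stood at 0.27 TPM. In lipid droplets and lipolysis 8 of 10 were detected, with Dgat1 at 71.1 TPM, the lipase Pnpla2 at 56.4, Lipa at 55.1 and Plin3 at 27.7, while G0s2, an inhibitor of that lipase, had 0 counts in all libraries. Among 22 further regulators 18 were detected, led by Tfam at 77 TPM, Nrf1 at 70.8, Nr1h2 at 37.1 and Prkab1 at 36.5, and the receptor Pparg stood at 0.743 TPM. The sterol factors Srebf2 and Srebf1 stood at 34.6 and 20.1 TPM.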

How the data were processed

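Each library came with a gene table, a transcript table and a whole-number table. The gene table, in the layout of RSEM, holds estimated counts in which a model divides reads that map to several places, per the file headers, on mm10 and GENCODE M21. TPM divides these counts by an effective length, as the authors deposited it. The posterior SD of each count is a signal in reads, as deposited. The transcript table gives each transcript's percent of its gene's TPM, per the file headers. The last table holds whole-number counts on GENCODE M4, as deposited. Aligner, versions, strand setting and duplicate handling: not given in the sources used here.

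Estimated counts were rounded. The quasi-likelihood test of edgeR needs groups to compare, and here there is 1. Each gene with a mean count of at least 10 was tested for a difference between the 3 libraries by a chi-square test against Poisson noise, with expectations proportional to TMM-scaled library sizes (edgeR 4.0.16, R 4.3.3; size factors of DESeq2 1.42.0 as an alternative) and Benjamini-Hochberg adjustment over all 13970 genes at 0.05. The test treats reads as independent and was tested on simulated data. Chi-square p-values set differences between technical libraries against counting noise. Sign-flip p-values test the mean difference between paired genes over these libraries. Neither covers the spread between animals. TMM-scaled CPM is the rounded count scaled by the TMM-adjusted library size to a common total. Entries without a gene identifier, 0.286%, 0.235% and 0.26% of counts in libraries 1, 2 and 3, were left out. Levels are TPM, with 0.1 added before log2, which understates differences of low genes, and ± is the SD over the libraries. Promoters are from RefSeq. No protein sequence was used here. A few genes of the other lists are not reported here.

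The genes and all lists were chosen with earlier results of these data known. All 36 members are named. Of other lists, up to 4 genes with the highest mean TPM and low genes the list is known for are named; of these, Acacb, Srebf1 and Srebf2 were added after their values were seen. Alternatives covered scaling, count filters, pseudocounts, length, transcript class, the whole-number tables and leaving out each library.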

Additional observations from a re-analysis of the deposited data

How the results depend on the processing

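The count of 18 differing members was 3 when chi-squares were divided by the median of all genes and 7 in the whole-number tables, and 12 to 13 when a library was left out. It was 24 with total counts and 17 to 19 under the other scalings, filters and with the posterior SD in the variance. Of all genes tested, 45.7% were called in the main test, 6.59% with the divided chi-squares and 21.6% in the whole-number tables. Without libraries 1, 2 and 3 the share was 34%, 30.7% and 21.3%, and with total counts 46.1%. Under the other scalings, filters and with the posterior SD in the variance it was 21.1% to 51.7%. Of the 18, 2 passed under every alternative run (Acsl5 and Acly), and of the 18 not called 11 passed under none. Over all members and alternatives, 42 of 335 recomputed library tests lost a call and 11 gained one. With posterior mean shares, the coding share of TPM moved by more than 1 SD in 17 of the 36 members. Oxidation minus synthesis was -0.39 on CPM without length, 1.56 with coding transcripts only and 0.66 in the whole-number tables. Under the other alternatives it was 1.27 to 1.47, and 1.31 to 1.42 when a library was left out. Of 162 recomputed pair differences 4 reversed. Cpt1a minus Fasn was -0.53 on CPM without length and -1.37 in the whole-number tables, Hadha minus Hadhb was 3.23 in the whole-number tables, and Etfa minus Etfb was 0.20 on CPM without length. The CPM values leave out length by construction, and for the whole-number tables the cause was not tested. Between 28 and 32 members were detected under the other limits. Depth limits Cd36, Scd1, Acsl3, Ppara, Ppard and Ppargc1a. Genes were paired within libraries, but no pairing of samples between groups was possible because there is 1 group.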
